A study of Mus musculus with 6 samples.

Results

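The integrated stress response is a signalling route by which cells slow protein synthesis and switch on a set of repair and supply genes. Kinases that sense misfolded protein, amino acid shortage, viral RNA or haem shortage phosphorylate the alpha subunit of the initiation factor eIF2. Translation then falls in general, while the mRNA of the transcription factor ATF4 is read more, because of short upstream reading frames in its leader. ATF4 pairs with C/EBP and other bZIP proteins and activates genes for amino acid import, for the synthesis of asparagine, serine, proline and cysteine, and for mitochondrial folate metabolism. In heart muscle this programme is best known from mitochondrial disease, where it comes with release of the hormones FGF21 and GDF15.

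A set of 35 named genes of this programme was followed here, chosen by symbol from the 56748 genes of the deposited table, and all 35 were found. RNA was sequenced from mouse hearts at postnatal day 1 to ask which genes depend on Kdm5b, a demethylase of lysine 4 of histone H3. The control group was 3 hearts of genotype FF, titled Flox, and the other group 3 hearts with a cardiac-specific Kdm5b knockout, written cKO here. The labels name neither the Cre driver nor the strain, and whether each numbered sample was a separate animal is not stated, so the p-values speak of the spread among these libraries, which may be technical. Values are FPKM, that is fragments scaled to gene length and library size. The deposited ones already had equal median ratios, over genes, to the mean of the libraries. Group values are means ± SD.

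The libraries held 15658893 to 20339926 reads. All 6 heart muscle markers checked (Myh6, Tnnt2, Actc1, Ttn, Ryr2 and Nkx2-5) were read in every library, with summed levels of 8201 to 10191 FPKM (FF) and 9646 to 11933 FPKM (cKO). Kdm5b was at 3.19, 3.25 and 3.92 FPKM in FF and at 2.80, 3.03 and 2.75 FPKM in cKO hearts. Its log2 difference was -0.20 (SE 0.12, adjusted p = 0.447, limma with Benjamini-Hochberg adjustment), and the exact two-sided permutation p was 0.1, the smallest that 3 against 3 allows. The whole-gene value includes exons outside a deleted part and all cell types of the heart, so it checks the labels only coarsely.

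One FF library, replicate 3, was unlike the rest, correlating with them at 0.880 to 0.909 across genes. All 8 thymocyte markers checked (Trbc1, Trbc2, Cd3e, Cd3g, Lck, Cd8a, Cd8b1 and Rag1) were highest in it, with a summed level of 267 FPKM against 0.34 to 1.46 FPKM elsewhere. In the other 5 libraries 1 to 3 of these 8 were at 0 FPKM, among them Cd8b1 in FF replicates 1 and 2 and in cKO replicates 1 and 3. Immediate-early genes, 9 markers of the response to handling, summed to 149 FPKM in it and to 69.3 to 96.7 FPKM in the others. The part of these transcripts in the differences below was not tested, and a difference without FF replicate 3 stands beside the one with all libraries where a test of a member is given.

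With all 6 libraries no member passed the threshold, an adjusted p of 0.05 over the 12678 genes with a mean of at least 1 FPKM. Of the 35 members 28 met that minimum and were tested with limma on log2(FPKM + 1), and 0 of these 28 passed, against 0.166% of all genes tested. At an unadjusted p of 0.05 the count was 6 of 28 (21.4%), namely Atf4, Stc2, Cebpb, Cebpg, Atf5 and Pycr1, against 17.9% of all genes. The FF and cKO values did not overlap at 9 members, that is 32.1% of the 28 against 28.0% of all genes. Of these 3 were higher in cKO (13.5% of all genes were) and 6 lower (14.5% of all genes were). The shares of the members lie near those of all genes. The median log2 difference of the 28 members was -0.08, against 0.0056 over all genes tested.

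Without FF replicate 3 a trio of members passed. Atf4 fell, and the secreted glycoprotein gene Stc2 and the mitochondrial serine enzyme gene Shmt2 rose. This is 3 of 28 (10.7%), near the 12.0% of all genes that passed in that fit, 5.73% higher and 6.26% lower. The groups no longer overlapped at 13 of 28 (46.4%), against 52.0% of all genes. The median of the members moved to 0.12, against -0.0093 over all genes.

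Markers of several cell types moved in that same fit. The 4 atrial muscle markers had a median log2 difference of 1.67, with Nppa called higher, and summed to 137 and 599 FPKM in FF replicates 1 and 2, to 1735 FPKM in FF replicate 3 and to 549 to 1525 FPKM in cKO hearts. Among 3 tested smooth muscle markers Acta2 and Cnn1 were called higher and 1 had a negative log2 difference (median 0.59). Their list summed to 267 and 282 FPKM in FF replicates 1 and 2, to 427 FPKM in FF replicate 3 and to 358 to 462 FPKM in cKO hearts. Of 6 fibroblast markers Dcn was called lower, and 4 had a negative and 2 a positive log2 difference (median -0.31). Of 6 endothelial markers Egfl7 was called lower, and 5 had a negative and 1 a positive log2 difference (median -0.13). The fibroblast list summed to 534 and 631 FPKM in FF replicates 1 and 2, to 750 FPKM in FF replicate 3 and to 421 to 535 FPKM in cKO hearts. For the endothelial list these sums were 283 and 271 FPKM, 387 FPKM and 236 to 289 FPKM. All 3 tested neutrophil markers (S100a8, S100a9 and Ngp) were called lower, and the erythroid markers Hba-a2 and Alas2 higher. The erythroid list summed to 1002 and 752 FPKM in FF replicates 1 and 2, to 1553 FPKM in FF replicate 3 and to 890 to 1095 FPKM in cKO hearts. None of the atrial, smooth muscle, fibroblast, endothelial, neutrophil and erythroid markers was at 0 in any library. Their part in the differences at Atf4, Stc2 and Shmt2 was not tested.

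FF replicate 3 was high at most members. It was the highest of the 6 libraries at 18 of the 28 tested members (64.3%), where the same held for 34.6% of all genes, and at 22 of all 35. At 6 tested members it exceeded each of the other libraries by over 1.5 times (21.4%, against 7.69% of all genes). Relative to the mean of FF replicates 1 and 2, the median member stood 0.37 higher in it on the log2(FPKM + 1) scale, while the cKO libraries had medians of -0.01, 0.17 and 0.04. The sign of the log2 difference changed at 5 of 28 members when it was left out (17.9%, against 22.2% of all genes), namely Ddit4, Mthfd1l, Asns, Aldh18a1 and Slc1a4.

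**Figure D1:**
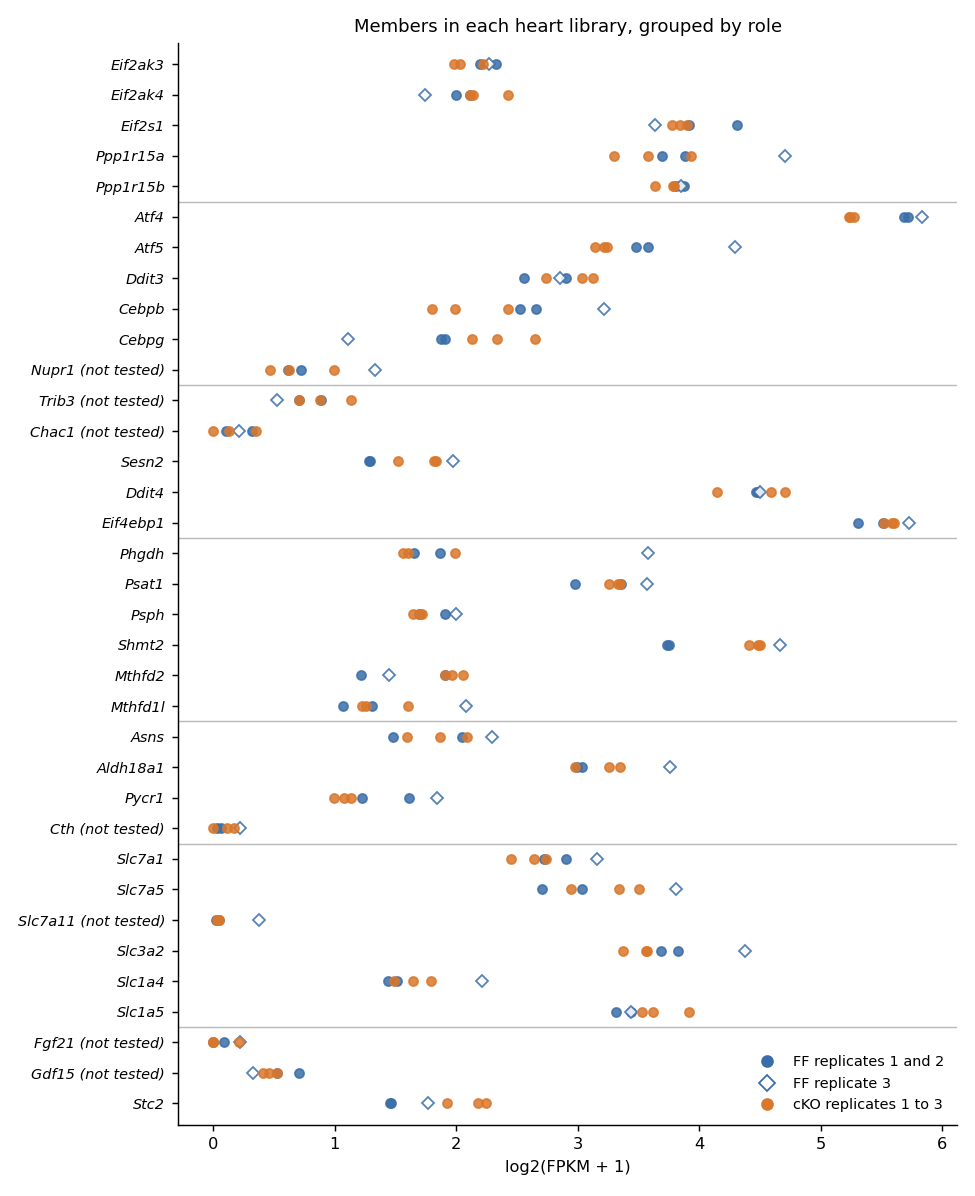
Level of the 35 members in each heart library on the log2(FPKM + 1) scale, by role from the eIF2 kinases at the top to the secreted factors at the bottom, with horizontal lines between roles. Blue circles are FF replicates 1 and 2, open diamonds FF replicate 3 and orange circles the 3 cKO libraries. The open diamond is the rightmost symbol at 22 of the 35 genes, while at Atf4 all 3 cKO circles lie left of the FF symbols.

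None of the 5 genes that start and stop the response passed in either fit. Eif2ak3 encodes PERK, the kinase of the endoplasmic reticulum, and stood at 3.59, 4.02 and 3.83 FPKM in FF and at 3.08, 2.95 and 3.65 FPKM in cKO hearts. Its groups overlapped at cKO replicate 3, and its log2 difference was -0.19 (95% interval -0.48 to 0.10), and -0.19 without FF replicate 3 too. Eif2ak4 encodes GCN2, the sensor of uncharged transfer RNA, and was at 3.00, 3.34 and 2.35 FPKM in FF and at 4.37, 3.41 and 3.32 FPKM in cKO hearts. Its groups overlapped at cKO replicate 3, with a log2 difference of 0.27 (SE 0.16), and 0.17 without FF replicate 3. Eif2s1, the gene of eIF2 alpha itself, was highest in FF replicate 1 at 18.8 FPKM and lowest in FF replicate 3 at 11.5 FPKM. Its 3 cKO values of 12.7 to 13.9 FPKM lay between these, and its log2 difference was -0.12, or -0.27 without FF replicate 3.

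Targeting subunits of the phosphatase that resets eIF2 alpha come as an inducible and a constitutive gene. Ppp1r15a encodes GADD34, the inducible subunit, and was at 13.7, 11.9 and 25.0 FPKM in FF and at 8.81, 14.2 and 10.9 FPKM in cKO hearts. FF replicate 3 had 1.95 times the mean of the other FF hearts at this gene, and the log2 difference of -0.49 (SE 0.30) shrank to -0.19 without it. Ppp1r15b, the constitutive subunit, held between 11.5 and 13.7 FPKM in all 6 libraries. Its cKO values lay just below the FF values, with a log2 difference of -0.10 (95% interval -0.37 to 0.16), also -0.10 without FF replicate 3.

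Atf4 had the smallest p of the 28 tested members when all 6 libraries were used, and Shmt2 had it without FF replicate 3. Its mRNA (ENSMUSG00000042406, chromosome 15, 80139385 to 80141742, plus strand) was at 50.3, 51.7 and 56.0 FPKM in FF hearts and at 37.6, 36.6 and 36.7 FPKM in cKO hearts. All cKO values lay below all FF values, the cKO values spread by only 0.541 FPKM (SD), and FF replicate 3 was close to the other FF hearts. The mean was 52.7 ± 2.95 FPKM (FF) and 37.0 ± 0.541 FPKM (cKO) (n = 3 each), a change of -29.8%. The log2 difference was -0.50 (SE 0.11, limma adjusted p = 0.0945) with all libraries and -0.45 (adjusted p = 0.0237) without FF replicate 3. Between 1705 and 2526 reads per library lay behind these values, and no other gene of the table overlapped Atf4. The value is an mRNA level, and ATF4 protein, which is set largely by translation, was not measured. In heart tissue, fewer cells of a type and less RNA per cell cannot be told apart.

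Atf5, a relative of ATF4 that is also controlled by upstream reading frames and acts in the mitochondrial stress response, was lower too but short of the threshold. It was at 11.0, 10.2 and 18.7 FPKM in FF and at 8.28, 7.82 and 8.46 FPKM in cKO hearts. The groups did not overlap, and the highest value was again FF replicate 3. The log2 difference was -0.59 (adjusted p = 0.246) and, without that library, -0.33 (adjusted p = 0.0591). Nup62, which overlaps Atf5 on the other strand, stood at 19.2 to 28.1 FPKM (FF) and 13.5 to 16.2 FPKM (cKO), and reads of the pair may be shared, as no source used here gives the strand setting of the counting.

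The C/EBP partners went in opposite directions, neither past the threshold. Cebpb, the C/EBP factor of acute-phase and myeloid genes, was at 5.30, 4.74 and 8.27 FPKM in FF and at 2.96, 4.37 and 2.48 FPKM in cKO hearts. Every cKO value was below every FF value, with a log2 difference of -0.73 (SE 0.24, limma adjusted p = 0.196) and of -0.52 (adjusted p = 0.117) without FF replicate 3. Peds1, which overlaps Cebpb on the other strand, was at 11.7, 11.2 and 14.8 FPKM in FF and at 9.51, 10.1 and 9.65 FPKM in cKO hearts, also lower in every cKO heart, and reads of this pair may be shared as well. Macrophage markers moved with it. The 6 markers (Adgre1, Cd68, Csf1r, Mrc1, C1qa and C1qb) summed to 36.0, 47.3 and 78.7 FPKM in FF and to 27.1, 34.2 and 31.0 FPKM in cKO hearts, 5 of the 6 with a negative log2 difference and none at 0 in any library. The 5 neutrophil markers summed to 14.5 to 24.2 FPKM and 7.59 to 9.64 FPKM, none at 0. Their part in the Cebpb difference was not tested.

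Cebpg, the partner that forms heterodimers with ATF4, was higher in cKO hearts, at 5.25, 3.38 and 4.06 FPKM, than in FF hearts, at 2.66, 2.76 and 1.15 FPKM. The groups did not overlap, and FF replicate 3 was the lowest of the 6. The log2 difference was 0.74 (SE 0.26, adjusted p = 0.212, limma) and 0.48 (adjusted p = 0.0960) without FF replicate 3. A pair of noncoding transcripts, Gm44836 and Gm45094, lie on the same strand within the gene. Ddit3, which encodes the death-associated factor CHOP, had overlapping values of 5.86 ± 0.847 FPKM (FF) and 6.86 ± 1.06 FPKM (cKO). A second entry of that symbol, 105 bases long, was at 0 in all 6 libraries. The log2 difference of Ddit3 was 0.20 (SE 0.16), and 0.24 without FF replicate 3, and Mars1 overlaps it on the other strand at 11.8 to 13.6 FPKM.

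**Figure D2:**
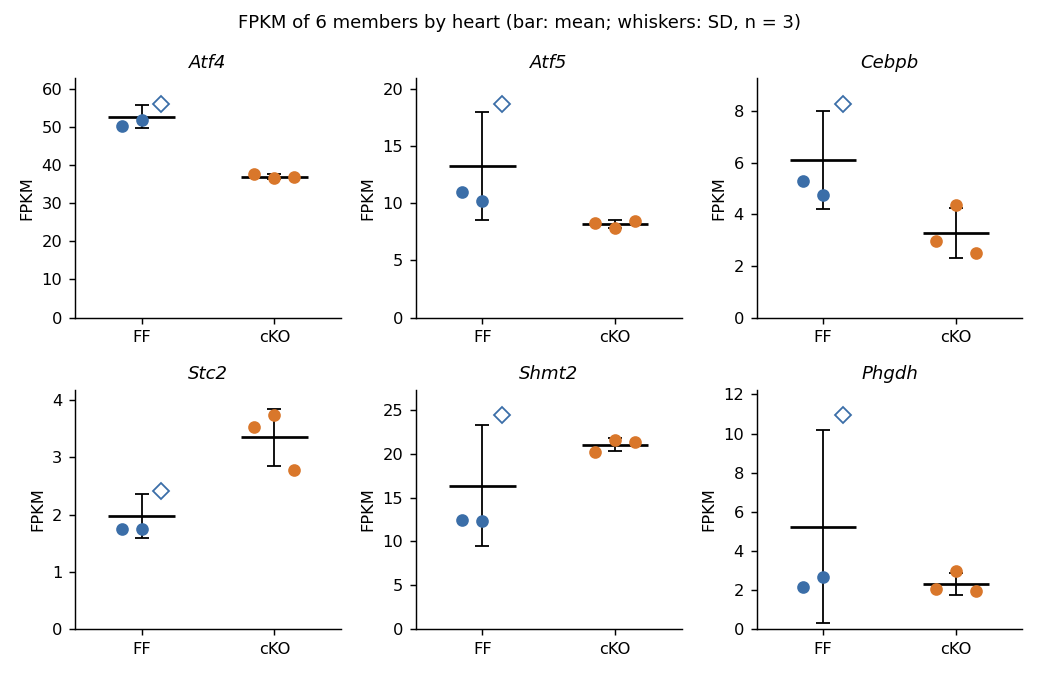
FPKM of Atf4, Atf5, Cebpb, Stc2, Shmt2 and Phgdh in FF and cKO hearts, with circles for libraries, an open diamond for FF replicate 3, a bar for the mean and whiskers for the SD (n = 3). The axes start at 0. At Atf4, Atf5, Cebpb and Stc2 the groups are apart in all libraries. At Shmt2 and Phgdh the diamond (24.4 and 10.9 FPKM) lies far above the other FF symbols.

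ATF4 dimers are known to bind a composite element that joins one arm of a C/EBP site to one arm of an ATF site. The motif TGATGNAA was searched on both strands in RefSeq promoter windows of 300 bases (250 before to 50 after the start, GRCm38.p6), which 30 of the 35 members had. It was found at 8 of these 30 members (26.7%), and at 4.51% of all 27025 symbols with a window. The members were chosen as targets of this pathway, so the share is a description. The matches that begin before the start of the gene are given here, 5′ to 3′ on the strand of the gene with up to 20 bases on either side and the motif in capitals, because most lie at members with little RNA in these hearts.
Chac1: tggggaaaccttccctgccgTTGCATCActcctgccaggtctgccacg
Slc7a11: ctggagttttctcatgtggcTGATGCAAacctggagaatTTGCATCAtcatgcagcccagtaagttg
Fgf21: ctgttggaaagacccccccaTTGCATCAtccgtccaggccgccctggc
Nupr1: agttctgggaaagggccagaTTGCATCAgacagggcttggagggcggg
Pycr1: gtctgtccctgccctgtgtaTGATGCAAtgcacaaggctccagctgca
Asns: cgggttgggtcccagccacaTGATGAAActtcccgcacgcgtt
Slc1a4: cctccagcgtgcctcctgcgTTGCATCA

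On GRCm38.p6 these stretches are chr2:119351029-119351076 on the plus strand for Chac1 and, on the minus strand, chr3:50443633-50443699 for Slc7a11, chr7:45615602-45615649 for Fgf21, chr7:126625553-126625600 for Nupr1, chr11:120643824-120643871 for Pycr1, chr6:7693210-7693252 for Asns and chr11:20332710-20332737 for Slc1a4. Slc7a11 holds the motif at 2 places, in opposite orientations, from 66 and from 47 bases before the start. Trib3 holds a match 15 bases after its start, which is not shown.

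Of the 8 motif holders 5 were members with little RNA in these hearts, and the motif share by level over all genes was not counted. Of the 7 members below a mean of 1 FPKM, 6 had a window, and 5 of those 6 held the motif (Chac1, Trib3, Slc7a11, Fgf21 and Nupr1). Of the 24 tested members with a window, 3 held it (Asns, Slc1a4 and Pycr1). None of Atf4, Stc2 and Shmt2 had these letters in its window, which says nothing of ATF4 binding elsewhere.

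Well-known inducible targets had very few reads in both genotypes. Chac1, a glutathione-degrading enzyme that ATF4 induces, was covered by 7, 2 and 5 reads in FF and by 9, 3 and 0 reads in cKO hearts. Fgf21, the starvation and mitochondrial stress hormone, had 0, 1 and 3 reads in FF and 0, 3 and 0 reads in cKO hearts. The 0 in cKO replicate 3 allows up to 0.145 FPKM of Fgf21 and up to 0.0844 FPKM of Chac1 (3 reads, counting error only). Gdf15, the other hormone of mitochondrial stress, was at 0.633, 0.439 and 0.254 FPKM in FF and at 0.328, 0.437 and 0.373 FPKM in cKO hearts, with all cKO values inside the FF range.

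At the further low members the genotypes overlapped too. Trib3, the pseudokinase that feeds back on ATF4, had 0.643 ± 0.206 FPKM (FF) and 0.884 ± 0.284 FPKM (cKO) (n = 3 each), from 18 to 50 reads per library. Nupr1, a small stress-induced chromatin factor, was at 0.900 ± 0.537 and 0.638 ± 0.312 FPKM, and its highest value was 1.52 FPKM in FF replicate 3. Cth, which makes cysteine from cystathionine, was covered by 0 to 9 reads. Slc7a11, the cystine and glutamate exchanger, had 80 reads in FF replicate 3 against 3 to 10 in each of the others, and apart from that library its range was 0.0135 to 0.0337 FPKM. All 7 low members had overlapping groups, and when every gene was tested without a filter their limma adjusted p lay between 0.696 and 0.956.

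None of the 3 effectors with more RNA passed in either fit. Ddit4, which restrains mTORC1 through the TSC complex, was at 21.3, 21.2 and 21.6 FPKM in FF and at 25.1, 23.1 and 16.7 FPKM in cKO hearts. The FF values were close to each other and lay within the cKO range, with a 95% interval of the log2 difference of -0.40 to 0.40, and of -0.40 to 0.42 without FF replicate 3. Eif4ebp1 encodes a repressor of cap-dependent translation and was among the most abundant members, at 45.0 ± 6.78 FPKM (FF) and 46.5 ± 1.48 FPKM (cKO), with a log2 difference of 0.06, or 0.16 without FF replicate 3. Sesn2, a leucine sensor upstream of mTORC1, was at 1.43, 1.44 and 2.92 FPKM in FF and at 1.87, 2.52 and 2.56 FPKM in cKO hearts. All its cKO values lay above FF replicates 1 and 2 and below FF replicate 3. The log2 difference of Sesn2 was 0.21 (limma adjusted p = 0.674) with all libraries and 0.44 (adjusted p = 0.0794) without FF replicate 3.

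Of 6 serine and one-carbon genes 1, Shmt2, passed, and only without FF replicate 3. Shmt2 splits serine in mitochondria into glycine and a one-carbon unit (ENSMUSG00000025403, chromosome 10, 127352992 to 127358313, minus strand). It was at 12.5, 12.3 and 24.4 FPKM in FF and at 20.3, 21.6 and 21.3 FPKM in cKO hearts. The 3 cKO values were alike and stood above FF replicates 1 and 2, while FF replicate 3 was above all of them. With all libraries the log2 difference was 0.41 (95% interval -0.21 to 1.04, limma adjusted p = 0.462). Without FF replicate 3 Shmt2 rose 1.70-fold, by 0.72 (SE 0.08, adjusted p = 0.0152). Ndufa4l2, which overlaps it on the other strand, was at 16.7, 13.4 and 28.4 FPKM in FF and at 12.7, 18.0 and 13.9 FPKM in cKO hearts, high in FF replicate 3 as Shmt2 was, and with a log2 difference of -0.02 without that library.

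Mthfd2, the next enzyme of the mitochondrial folate route, did not pass. It was at 2.75, 1.33 and 1.72 FPKM in FF and at 2.74, 3.15 and 2.89 FPKM in cKO hearts, so that FF replicate 1 alone reached the cKO level. Its log2 difference was 0.45 (SE 0.20, limma adjusted p = 0.297) and 0.41 (adjusted p = 0.213) without FF replicate 3. Mthfd1l, which makes formate at the end of that route, was at 1.94 ± 1.13 FPKM (FF) and 1.59 ± 0.384 FPKM (cKO), with 3.23 FPKM in FF replicate 3. The log2 difference of Mthfd1l was -0.12, or 0.17 without that library.

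None of the 3 serine synthesis genes upstream of these passed in either fit. Phgdh, the entry enzyme from glycolysis, was at 2.14, 2.64 and 10.9 FPKM in FF and at 2.04, 2.97 and 1.95 FPKM in cKO hearts. FF replicate 3 was far above all others, with 4.57 times the mean of the other FF hearts. Without it the log2 difference went from -0.65 (95% interval -1.83 to 0.53) to -0.04 (-0.44 to 0.36). Psat1, the next step, was at 8.99 ± 2.01 and 8.93 ± 0.329 FPKM, and Psph, which releases serine, at 2.66 ± 0.390 and 2.22 ± 0.0817 FPKM. Both had overlapping groups with FF replicate 3 as the highest library. Psat1 had a log2 difference of 0.01, or 0.15 without that library, and Psph of -0.18, or -0.11. Cct6a overlaps Psph on the other strand at 49.2 to 54.8 FPKM.

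Other amino acid synthesis genes gave no call. Asns, the asparagine synthetase and a classic ATF4 target, was at 3.13, 1.78 and 3.90 FPKM in FF and at 2.02, 3.26 and 2.64 FPKM in cKO hearts, interleaved between the genotypes, with a log2 difference of -0.09, or 0.09 without FF replicate 3. Aldh18a1 opens proline synthesis from glutamate and was at 8.89 ± 3.15 and 8.20 ± 1.19 FPKM, with FF replicate 3 at 12.5 FPKM above all others and a log2 difference of -0.07, or 0.18 without it. Pycr1, which closes proline synthesis in mitochondria, was at 1.34, 2.05 and 2.59 FPKM in FF and at 1.20, 1.11 and 0.995 FPKM in cKO hearts. Its groups did not overlap, and its log2 difference was -0.49 (limma adjusted p = 0.251) and -0.35 (adjusted p = 0.154) without FF replicate 3.

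No amino acid transporter among the members passed in either fit. Slc3a2 encodes the heavy chain CD98, which carries the light chains to the membrane, and was at 13.1, 11.9 and 19.8 FPKM in FF and at 9.36, 10.9 and 10.8 FPKM in cKO hearts. All cKO values were below the FF values, with a log2 difference of -0.46 (SE 0.20, limma adjusted p = 0.293), and -0.25 without FF replicate 3. Its leucine-carrying partner Slc7a5 was at 7.20, 5.51 and 13.0 FPKM in FF and at 6.71, 10.3 and 9.11 FPKM in cKO hearts, with overlapping groups and a log2 difference of 0.08, or 0.39 without FF replicate 3. Slc1a5, the glutamine carrier, was at 9.55 ± 0.504 FPKM (FF) and 12.0 ± 1.84 FPKM (cKO), with no overlap and a log2 difference of 0.29 (95% interval -0.04 to 0.62), or 0.31 without FF replicate 3. Slc7a1, for arginine and lysine, was at 6.66 ± 1.17 and 5.12 ± 0.618 FPKM, and Slc1a4, for serine and alanine, at 2.39 ± 1.06 and 2.13 ± 0.329 FPKM. Values of both overlapped, and the highest was FF replicate 3. Without it the log2 difference of Slc7a1 went from -0.32 to -0.20 and that of Slc1a4 from -0.08 to 0.17.

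Among the secreted factors Stc2 was higher in every cKO heart. It encodes stanniocalcin 2, a secreted inhibitor of the protease PAPP-A, which frees insulin-like growth factors (ENSMUSG00000020303, chromosome 11, 31307307 to 31320074, minus strand). It was at 1.74, 1.75 and 2.41 FPKM in FF and at 3.53, 3.73 and 2.79 FPKM in cKO hearts, from 145 to 382 reads. All cKO values lay above all FF values, 1.70 times on average. The log2 difference was 0.55 (SE 0.16, limma adjusted p = 0.154) with all libraries and 0.66 (SE 0.13, adjusted p = 0.0320) without FF replicate 3. No other gene of the table overlapped Stc2.

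**Figure D3:**
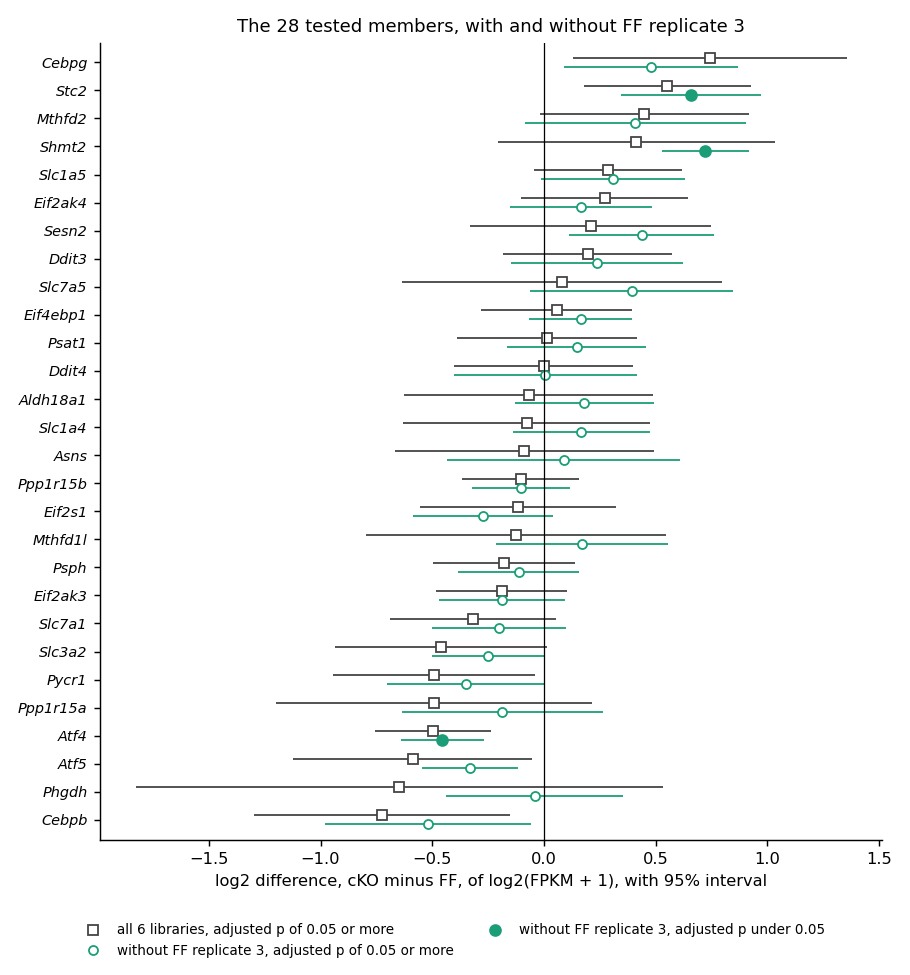
Difference between cKO and FF means of log2(FPKM + 1), with its 95% interval, for the 28 tested members, from limma with all 6 libraries (squares) and without FF replicate 3 (circles). Filled symbols passed an adjusted p of 0.05, which only Shmt2 (0.72), Stc2 (0.66) and Atf4 (-0.45) did, without FF replicate 3. The interval of Phgdh narrows most visibly when that library is left out.

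Other genes of the pathway were read from lists set down beside the members. No gene of these 9 lists passed with all 6 libraries. The 20 cytosolic aminoacyl-tRNA synthetases, many of them ATF4 targets that charge transfer RNA, had a median log2 difference of -0.0053 with all libraries and 0.06 without FF replicate 3, and none passed in either limma fit. Lars, for leucine, had a log2 difference of 0.46 (limma adjusted p = 0.192), and of 0.32 (adjusted p = 0.0529) without FF replicate 3. Yars, for tyrosine, had one of -0.21, or -0.16 without that library. Of 9 other genes for eIF2 kinases and subunits of eIF2 and its exchange factor eIF2B, none passed. Eif2ak2, the kinase that senses double-stranded RNA, was at 5.18, 5.43 and 2.16 FPKM in FF and at 6.33, 6.33 and 5.99 FPKM in cKO hearts. FF replicate 3 was far the lowest, and the log2 difference of 0.53 became 0.20 without it. Eif2b2 was at 19.7 ± 2.25 and 14.9 ± 1.24 FPKM (n = 3 each), with a log2 difference of -0.38, or -0.29 without that library.

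Of 14 further genes commonly counted with the ATF4 programme 12 were tested, with a median log2 difference of 0.10. Atf3, the bZIP factor downstream of ATF4 and also an immediate-early gene, was at 14.1, 13.5 and 20.1 FPKM in FF and at 5.24, 10.1 and 8.02 FPKM in cKO hearts. It was lower in all cKO hearts, with a log2 difference of -0.96 (SE 0.25, limma adjusted p = 0.134) and -0.79 (adjusted p = 0.0704) without FF replicate 3. The 9 immediate-early markers summed to 94.3 to 149 FPKM (FF) and 69.3 to 91.2 FPKM (cKO), none at 0. With all libraries 7 of the 8 tested had a negative and 1 a positive log2 difference, and FF replicate 3 was highest at all 8. Without it 6 were negative and 2 positive, with Dusp1 called lower and Egr1 called higher. Their part in the Atf3 difference was not tested. Gpt2, the mitochondrial alanine transaminase, fell without FF replicate 3 (-0.46, adjusted p = 0.0480, limma), with -0.54 (adjusted p = 0.129) when all were used. Without FF replicate 3 the glutamine carrier gene Slc38a2 and the autophagy receptor gene Sqstm1 rose as well, by 0.45 and 0.58 (limma adjusted p = 0.0263 and 0.0343). Both were singled out after their values were seen. With all libraries their differences were 0.75 and 0.36 (adjusted p = 0.207 and 0.443), and the groups of Sqstm1 overlapped. Gpt2, Slc38a2 and Sqstm1, 3 of 12, stand beside the 12.0% of all genes that passed without FF replicate 3.

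Folate and methyl cycle genes outside the members held 5 that passed without FF replicate 3. Of 22 such genes 21 were tested, and of those that passed 3 were higher and 2 lower. Over all genes 12.0% passed in that fit, 5.73% higher and 6.26% lower. Tyms, the thymidylate synthase of DNA replication, was at 5.23, 3.54 and 4.39 FPKM in FF and at 1.94, 1.79 and 1.91 FPKM in cKO hearts. Its groups were well apart, and FF replicate 3 lay between the other FF hearts. The log2 difference of Tyms was -0.89 with all libraries (limma adjusted p = 0.0673) and also without FF replicate 3 (adjusted p = 0.0239). Mtr, the methionine synthase, named after its values were seen, rose by 0.48 without FF replicate 3 (limma adjusted p = 0.0299). With all libraries it rose by 0.60 (adjusted p = 0.105). The folate dehydrogenase gene Aldh1l1, also named after its values were seen, was among the 3 called higher. It was at 0.350, 0.318 and 0.995 FPKM in FF and at 1.37, 1.79 and 1.42 FPKM in cKO hearts. Aldh1l1 met the minimum mean of 1 FPKM only through the cKO group, so its call is not read as support.

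Glutamine, proline and transport genes beside the members gave 4 calls among the 14 and 16 tested genes of their lists, all higher and all without FF replicate 3, where 5.73% of all genes were called higher. Glul, the glutamine synthetase, was at 48.0, 47.5 and 49.6 FPKM in FF and at 75.5, 98.5 and 67.9 FPKM in cKO hearts. The FF values were alike in all 3 hearts and the cKO values all higher, with a log2 difference of 0.71 (SE 0.16, limma adjusted p = 0.103) and 0.73 (adjusted p = 0.0394) without FF replicate 3. It was the only one of 14 tested genes of its list to pass there. Oat, which links ornithine to proline, was at 62.1 ± 3.39 and 82.1 ± 9.72 FPKM (n = 3 each), with a log2 difference of 0.39, or 0.37 without FF replicate 3. Of 16 other transporters tested, 3 rose without FF replicate 3 (limma). They were Slc38a4 (0.51, adjusted p = 0.0333), the taurine carrier gene Slc6a6 (0.40, adjusted p = 0.0409) and, named after its values were seen, Slc38a7 (0.66, adjusted p = 0.0176). With all libraries these differences were 0.73, 0.34 and 0.31 (limma adjusted p = 0.155, 0.226 and 0.613). Slc38a7 was highest in FF replicate 3, at 6.11 FPKM against 4.44 to 4.56 FPKM in cKO hearts.

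Stress sensors of mitochondria and the endoplasmic reticulum, and genes around mTORC1, completed the lists. None of the 8 genes of the mitochondrial relay to eIF2 alpha and of mitochondrial proteostasis passed. Hspa9, the mitochondrial HSP70, was at 125 ± 25.2 FPKM (FF) and 166 ± 14.4 FPKM (cKO), and Clpp, a matrix protease subunit, at 23.5 ± 2.42 and 19.3 ± 2.50 FPKM. The log2 difference of Hspa9 was 0.43, or 0.26 without FF replicate 3, and that of Clpp -0.27, or -0.20. None of 11 other bZIP and related factors passed either. Xbp1, the factor of the unfolded protein response, was at 26.7, 21.7 and 40.3 FPKM in FF and at 17.0, 16.2 and 18.9 FPKM in cKO hearts, lower in all 3 cKO hearts. Its log2 difference was -0.69 (limma adjusted p = 0.192), and -0.45 (adjusted p = 0.0577) without FF replicate 3. Atf6 was at 9.11 ± 0.511 and 11.7 ± 1.80 FPKM, with a log2 difference of 0.32, or 0.28 without that library. Of 11 genes around mTORC1, Tsc1, a subunit of its upstream inhibitor, rose without FF replicate 3 (0.48, limma adjusted p = 0.0445). With all libraries its difference was 0.63 (adjusted p = 0.137), and every cKO value was above every FF value. Tsc2 and Eif4ebp2, named after their values were seen, were called higher without FF replicate 3 (0.47 and 0.42, adjusted p = 0.0418 and 0.0433, limma). That library was their highest, at 15.2 and 44.3 FPKM. With it the differences were 0.22 and 0.17 (adjusted p = 0.670 and 0.748), and the groups overlapped. The 3 of 11 called without FF replicate 3 stand beside 5.73% of all genes called higher in that fit. Sesn1 was at 15.9 ± 1.80 and 27.9 ± 7.87 FPKM, short of the threshold in both fits.

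**Figure D4:**
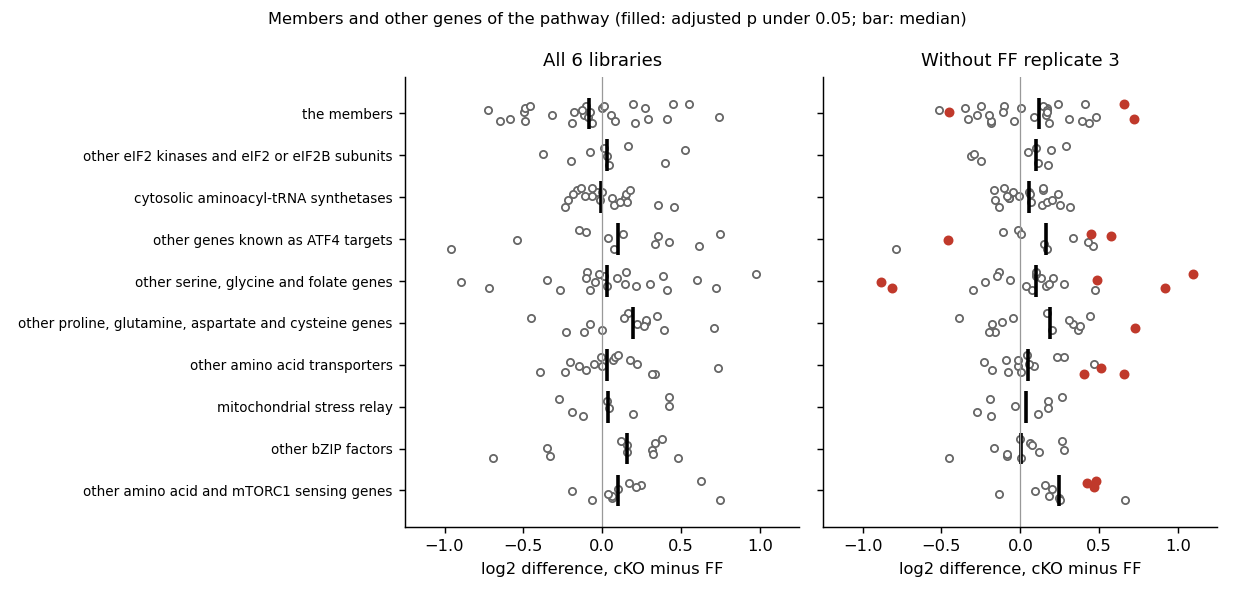
Log2 differences, cKO minus FF, of the 28 tested members (top row) and of the tested genes in 9 other lists of the pathway, with all 6 libraries (left) and without FF replicate 3 (right). Each circle is a gene, a vertical bar is the median of its list, and filled circles passed a limma adjusted p of 0.05. No circle is filled on the left, and on the right the filled ones lie on both sides of 0 in the top row.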

How the data were processed

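The deposited table gives the authors' FPKM values per gene in 6 columns, 1 per heart library. Tools listed without order in the submitters' processing notes are edgeR, featureCounts, Subread, FastQC and TopHat2 2.0.13, and the builds listed without role are mm10, GRCm39 and GRCh38. No source used here gives the annotation release or the strand setting. Of the 35 members 1 had the same start and end in GENCODE M21 (GRCm38), so coordinates are those of the deposited table, and of the mouse builds named this leaves GRCm39. Promoters come from RefSeq on GRCm38.p6 and were matched by symbol. Of 35 member windows 29 had bases after the start that occur in a GENCODE M21 transcript of the gene.

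FPKM times gene length was a whole multiple of 1 step per library (100% of values under 200 reads, within 0.1), which gave the reads. The ratio to the geometric mean of the libraries had a median of 1.01 in each library, over the 17868 genes above 0 in all. The deposited values thus already had equal median ratios. Differences were tested with limma 3.58.1 (R 4.3.3) on log2(FPKM + 1), with genotype alone in the model, a trend of variance on level and Benjamini-Hochberg adjustment at 0.05 over 12678 genes with a mean of at least 1 FPKM. The steps were tested on simulated data. Alternatives were pseudocounts of 0.1 and 0.5, other filters, 3 other scalings, library weights, a replicate block and leaving out each library. All members are named, with Kdm5b and the 2 genes of smallest p in each pathway list. Some genes that this rule or a count would name are not reported here. The members and lists were chosen with earlier results of these data known. The number of reads limits the precision of low genes.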

Additional observations from a re-analysis of the deposited data

How the results depend on the processing

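The count of 21 genes past the threshold (9 higher and 12 lower in cKO) became 11 with a pseudocount of 0.1 (5 lower), had 6 lower with one of 0.5, and was 0 with no filter on low values, 53 (23 and 30) at a mean of at least 5 FPKM, 59 (31 and 28) with quantile normalization and 58 (38 and 20) after rescaling on genes other than haemoglobin and mitochondrially encoded ones. Library weights gave 4300 (2143 and 2157), with a weight of 0.0860 for FF replicate 3 and 5.69 for FF replicate 2. Leaving out 1 library gave 0 to 1520 genes (0 to 726 higher, 0 to 794 lower), above 0 only without FF replicate 3. The cause was not tested.

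No member passed except without FF replicate 3 (0 to 3 members over the libraries left out) and with library weights. With those weights 10 of 28 members passed, beside 4300 of all 12678 genes tested. They were Stc2, Shmt2, Cebpg, Sesn2, Mthfd2 and Slc7a5 higher, and Atf4, Atf5, Cebpb and Pycr1 lower. The median of the members was 0.12 with those weights and -0.16 to 0.12 over the libraries left out. At a mean of at least 5 FPKM, 15 members were tested and 5 had groups that did not overlap. The share of all genes without overlap was not counted at this filter, and at the main minimum of 1 FPKM it was 28.0%. Median-ratio scaling changed nothing by construction, since the deposited values already had equal median ratios.

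Log2 differences changed sign at 9 members, all small with all libraries. Ddit4 was at 0.083 with quantile normalization and, like Aldh18a1 at 0.015, at 0.087 after that rescaling. With library weights Mthfd1l, Asns, Aldh18a1 and Slc1a4 were at 0.23, 0.31, 0.18 and 0.17. Over the 6 fits that left out 1 library, Eif2s1 ranged from -0.27 to 0.060, Ddit4 from -0.11 to 0.17, Eif4ebp1 from -0.049 to 0.16, Psat1 from -0.15 to 0.15, Mthfd1l from -0.33 to 0.17, Asns from -0.32 to 0.089, Aldh18a1 from -0.20 to 0.18, Slc7a5 from -0.16 to 0.39 and Slc1a4 from -0.22 to 0.17.

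The replicate block, with the number of the labels as a further term, gave 2 genes (1 higher and 1 lower) and no member. Deviations of same-numbered libraries correlated at 0.38, -0.24 and 0.24 across genes, and not every library correlated best with its own number. With 3 libraries per group and FF replicate 3 unlike the rest, these values cannot show whether same-numbered samples were paired.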
